A study of Mus musculus with 16 samples.

Results

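Thymocytes of NOD and B6g7 mice that carried the same transgenic T cell receptor were compared before any peptide was added, with 3 arrays from each strain. These 6 arrays were chosen by their titles, out of 16 in the series. BDC2.5/NOD is the BDC2.5 transgene on the NOD background, and BDC2.5/B6g7 is the same transgene on the B6g7 background. All 6 arrays came from cells that the labels call CD4+CD8+, kept in fetal thymic organ culture (lobes of fetal thymus grown in a dish). The other 10 arrays hold both strains with the transgene at 16 h of peptide (3 and 3) and without the transgene (2 and 2, wild-type), and they share no array with the comparison described here. The labels give no age, no sex, no promoter of the transgene and no count of animals per array. They do not say whether the arrays of a group are separate animals or cultures. The p-values rest on the spread within the groups of all 16 arrays, which may be technical only.

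BDC2.5 is a receptor for an islet antigen, taken from a CD4 T cell clone that causes diabetes. NOD mice develop autoimmune diabetes, and the B6g7 strain pairs C57BL/6 genes with the MHC haplotype of NOD, so the receptor meets the same MHC molecules in both. Double-positive thymocytes carry both coreceptors, test their receptor on self-peptides, and then survive, mature or die. With no peptide added, the arrays read the strains before that stimulus. Whether selection on self-peptides differed between them by then was not tested.

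Each array gives 1 intensity per probe set, a group of short probes that reads 1 stretch of a transcript. Median intensity per array lay between 54.7 and 59.1, and the median difference between the strains over all probe sets was 0.03 on the log2 scale. The largest source of variance did not separate the strains. The first principal component of the 6 arrays held 66.1% of the variance and placed the array numbered 3 at 33.3 in B6g7 and 33.7 in NOD, against -24.7 to 7.21 and -33.4 to -16 for the arrays numbered 1 and 2. The 3' minus 5' signal of beta-actin, a measure of RNA integrity and labelling, was lowest in the arrays numbered 3 (log2 1.36 against 2.41 and 2.58 in B6g7, and 1.86 against 2.33 and 3.27 in NOD). Each strain had 1 such array, and what the number stands for is not stated.

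Defining genes of double-positive thymocytes were bright in both strains, and Cd8a, Rag1, Dntt, Cd4, Cd3e and Cd24a were not called. Cd8a, the alpha chain of the CD8 coreceptor, read 2403, 2740 and 3082 in the B6g7 arrays and 2117, 2764 and 4093 in the NOD arrays. The recombinase gene Rag1 read 861, 2138 and 2492 in B6g7 and 801, 1217 and 3337 in NOD, and Dntt, which adds bases at receptor junctions, read 2721, 1905 and 2735 against 2896, 2680 and 3459. The groups overlapped for these 3 genes. Cd4 differed by 0.11 ± 0.18 on the log2 scale, Cd3e by 0.12 ± 0.15 and Cd24a by 0.18. All of these had an adjusted p of 1 in limma, and these differences do not show that the levels were equal. Cd8b1, the CD8 beta chain gene described below, was lower in NOD with the groups apart (log2 -1.89 ± 0.36, limma adjusted p = 0.0519). Of 17 measured double-positive genes, 10 were higher and 7 lower, and Cd8b1 was the 1 apart (5.88%, where 5.39% of all genes were). Il7r, which double-positive cells switch off, stayed between 19.7 and 30.8 in the 6 arrays, below the median of each array.

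limma called 33 of 12422 probe sets between the strains, 11 higher and 22 lower in NOD, at an adjusted p under 0.05. That is 0.266% of those tested (0.0886% higher and 0.177% lower), and 428 (3.45%) had an unadjusted p under 0.05. In all 33 the 3 NOD arrays lay apart from the 3 B6g7 arrays, as they did in 696 of all probe sets (5.6%, or 3.24% higher and 2.37% lower). Of the 33, 27 named 1 gene each, 3 named several genes and 3 named none. The called probe set was its gene's brightest in 19 of the 27, and these 19 are 0.23% of 8251 genes. With 1 array left out the count was 21, 17 and 16 without the B6g7 arrays numbered 1, 2 and 3, and 24, 15 and 20 without the NOD arrays numbered 1, 2 and 3. Of the 27 genes, 8 were called in all 6 of these fits: Cnn3, Pdk1, Ckb, Pttg1 and Gm3716, and, by a probe set that is not the gene's brightest, AI506816, Pelo and Prdx2. The 6 arrays alone, without the spread of the other 10, gave 0 calls, with 367 unadjusted p under 0.05 and 0.0509 as the lowest adjusted p among the 33. With the array number as a block limma called 69, and all 33 were among them.

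**Figure D1:**
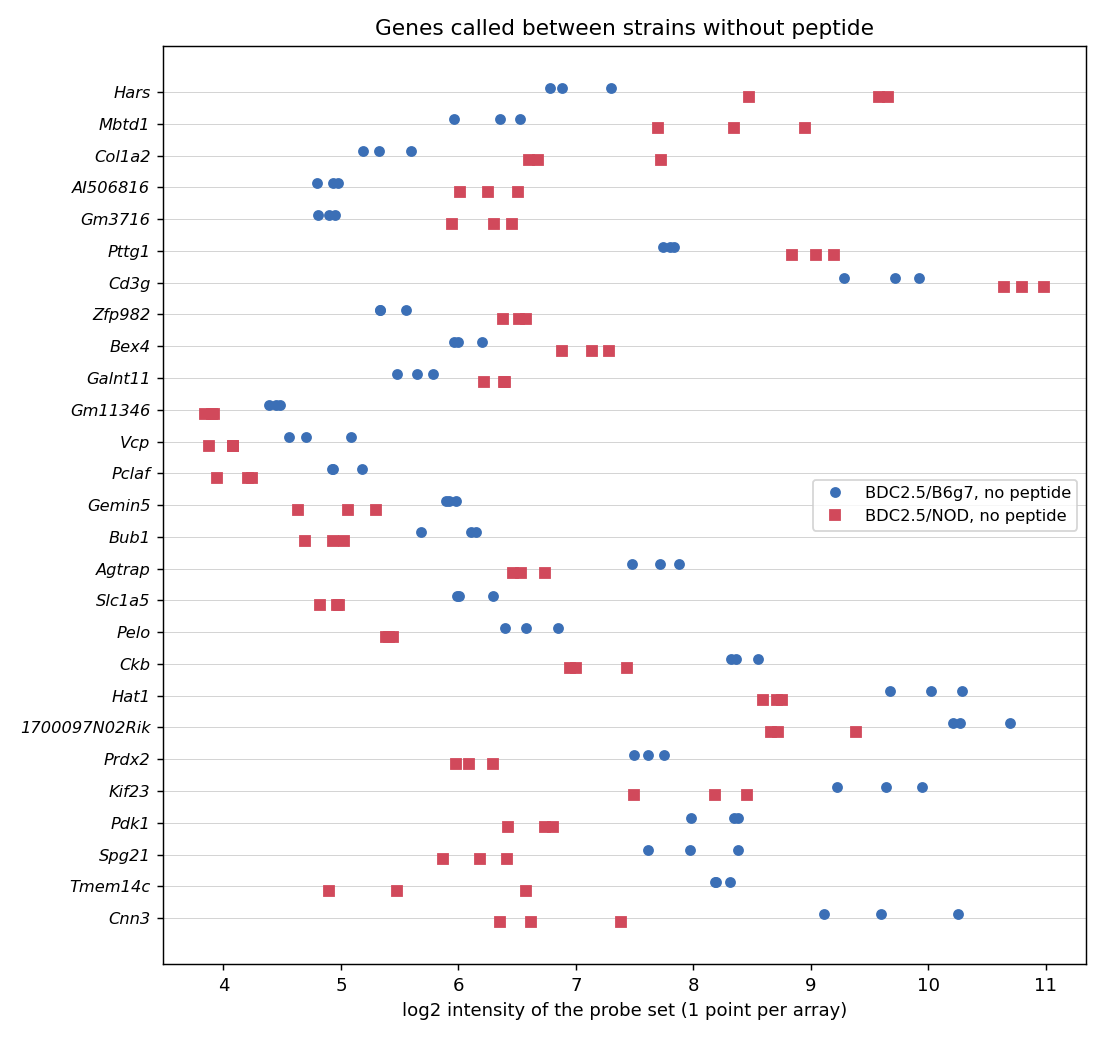
Intensity on the log2 scale of the 27 called probe sets that name 1 gene, 1 point per array, for BDC2.5 thymocytes without peptide of B6g7 (blue circles, n = 3) and NOD (red squares, n = 3). In every gene shown the 3 NOD points lie on 1 side of the 3 B6g7 points, and the widest differences in mean are those of Cnn3 and Tmem14c, both lower in NOD.

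The largest difference in a named gene was that of Cnn3, an acidic calponin that binds actin filaments. It read 554, 1219 and 776 in B6g7 and 81.9, 167 and 98.5 in NOD. Even the highest NOD array was far under the lowest B6g7 array, and the fall came to 7.31-fold (log2 -2.87 ± 0.33, limma adjusted p = 0.00125). In bulk cells such as these, fewer cells that express a gene and less RNA per cell cannot be told apart. Of 27 measured calponin and actin genes, 14 were higher and 13 lower. Cnn3 was the 1 member with the groups apart (3.7%, where 5.39% of all genes were). Its relative Cnn2 differed by -0.07. Tmsb10, a thymosin that binds free actin, was at 1.01 with overlapping groups and was not called.

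Genes that feed or steer metabolism were among the falls. Pdk1, the kinase that switches off pyruvate dehydrogenase and so holds pyruvate back from the mitochondria, read 253, 334 and 326 in B6g7 and 85.6, 107 and 112 in NOD. It fell by 1.58 ± 0.19 on the log2 scale (limma adjusted p = 0.00181). Ckb, the brain-type creatine kinase that buffers ATP, read 329, 375 and 320.4 against 124, 173 and 128 (log2 -1.28 ± 0.18, limma adjusted p = 0.00644). Without the last-numbered arrays of all groups, the 16 h and wild-type groups included, its limma adjusted p was 0.0704. Slc1a5 (ASCT2), a glutamine and neutral amino acid carrier, read 78.4, 63.4 and 64.3 in B6g7 and 31.7, 28.2 and 31.2 in NOD (log2 -1.17 ± 0.18, limma adjusted p = 0.0120). No NOD array of these 3 genes reached a B6g7 array. The Slc1a5 call was lost without the B6g7 array numbered 1 or the NOD array numbered 2 (limma adjusted p up to 0.085).

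The other genes of these pathways gave no call. Of 21 measured glycolysis genes, 9 were higher and 12 lower in NOD, 3 lay apart upward (14.3%, where 3.01% of all genes did) and 1 downward (4.76%, where 2.39% did), and Pdk1 was the 1 called. Ldhb, a lactate dehydrogenase subunit, was among the 3 upward, at 538, 466 and 448 against 741, 1041 and 799.9 (log2 0.82, limma adjusted p = 0.605, not called). Of 15 amino acid and nutrient carriers, 5 were higher and 10 lower, with Slc1a5 called. Of 35 oxidative phosphorylation genes, 27 were higher and 8 lower with a median of 0.05, none called and none apart. Over all 8251 genes, 4971 were higher and 3280 lower with a median of 0.03, a majority on the higher side too. Between arrays numbered 1, 2 and 3 the oxidative phosphorylation median was 0.13, 0.35 and -0.16, with 14, 7 and 25 of 35 lower.

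Hat1, the enzyme that acetylates new histone H4 before it enters chromatin, fell in NOD. It read 1041, 816 and 1248 in B6g7 and 433, 386 and 421 in NOD, with all NOD arrays lower (log2 -1.30 ± 0.19, limma adjusted p = 0.00890). The call was lost without the B6g7 array numbered 3 or the NOD array numbered 2 (limma adjusted p up to 0.0598), and without the last-numbered arrays of all groups (0.0704). Of 13 histone chaperone and chromatin assembly genes, 10 were lower and 3 higher (median -0.12). Hat1 was the 1 that lay apart (7.69%, where 5.39% of all genes did). Asf1b, the chaperone that hands over new H3 and H4, was at -0.28, and Nap1l1 at -0.07.

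Cell division genes gave calls in both directions. Kif23, a kinesin of the central spindle needed for cytokinesis, read 985, 599 and 799.7 in B6g7 and 181, 290.5 and 351 in NOD, a fall in which the groups lay well apart (log2 -1.56 ± 0.29, limma adjusted p = 0.0442). Pttg1 (securin), which holds back the enzyme that parts sister chromatids, read 215, 223 and 228 against 588, 530 and 457. It rose by 1.24 ± 0.17 (limma adjusted p = 0.00644), and every NOD array was above every B6g7 array. The checkpoint kinase gene Bub1 was called lower by 1 dim probe set (-1.09 ± 0.19, limma adjusted p = 0.0284), while its brightest probe set gave 0.04. Pclaf, a partner of the replication clamp, was called lower by a dim probe set (-0.88 ± 0.13, limma adjusted p = 0.0114) and gave -0.52 and -0.20 by its other probe sets, neither called. Of 38 measured mitosis genes, 27 were lower and 11 higher with a median of -0.19, 4 lay apart downward (10.5%, where 2.39% of all genes did) and 1 upward (2.63%, where 3.01% did), and Kif23 was the 1 called by brightest probe set in that list. Between arrays of the same number the median was -0.35, 0.01 and -0.19 for numbers 1, 2 and 3, with 26, 18 and 30 of 38 lower. Plk1, a mitotic kinase, lay apart at -0.45 ± 0.22 (limma adjusted p = 1). Of 39 replication genes, 25 were lower and 14 higher (median -0.05), with 1 apart (2.56%, where 5.39% of all genes were). By array number their median was -0.19, 0.17 and -0.17. Kif23 kept its call in 1 of the 6 leave-one-out fits, that without the NOD array numbered 3. The highest adjusted p of the other 5 fits was 0.188. The call was also lost under median centring, with no intensity trend and without the last-numbered arrays of all groups (limma adjusted p 0.0561, 0.051 and 0.059).

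Cd3g, the gamma chain of the CD3 complex that carries the receptor's signal into the cell, rose in NOD. It read 844, 623 and 971 in B6g7 and 1786, 2024 and 1604 in NOD, a 2.25-fold difference with the groups apart (log2 1.17 ± 0.22, limma adjusted p = 0.0459). The call was lost without any 1 of the 6 arrays (limma adjusted p from 0.0681 to 0.267) and under median centring (0.0679). Of the 5 measured receptor and CD3 chains 4 were higher: Cd247 (the zeta chain) at 0.38 ± 0.34, Cd3d at 0.28 ± 0.18 and Cd3e at 0.12 ± 0.15 were not called, and their groups overlapped.

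Cd8b1, the beta chain of the CD8 coreceptor, missed the threshold by little. It read 3132, 2704 and 1850 in B6g7 and 521, 1028 and 579 in NOD, so that every NOD array was lower (log2 -1.89 ± 0.36, limma adjusted p = 0.0519, and 0.0129 with the array number as a block). The alpha chain gene Cd8a was at 0.08 ± 0.35. In the other 10 arrays Cd8b1 fell by 1.96 (limma adjusted p = 0.00641), at 414.7 to 690 in 5 NOD arrays and 1308 to 3382 in 5 B6g7 arrays. Gm11346, Gm3716, AI506816 and 1700097N02Rik, whose products have no role that can be stated here, were called as well, Gm3716 at 31, 28 and 29.8 against 61.6, 88.1 and 79.1 (log2 1.35 ± 0.15, limma adjusted p = 0.00102). With single arrays left out, Gm11346 lost its call in 6 of 6 fits and 1700097N02Rik in 5, while Gm3716 and AI506816 kept theirs.

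The other calls covered several roles. Hars, the histidyl-tRNA synthetase, read 118, 109.7 and 157 in B6g7 and 806, 768 and 356 in NOD, and was the largest rise (log2 2.25 ± 0.35, limma adjusted p = 0.0130). The NOD array numbered 3 gave the lowest of its 3 values, still over every B6g7 array. Tmem14c, a mitochondrial membrane protein used in heme synthesis, read 292, 293 and 318 against 29.9, 44.5 and 95.4, a 5.99-fold fall (log2 -2.58 ± 0.49, limma adjusted p = 0.0493). Spg21 (maspardin), a protein that binds the tail of CD4, read 196, 333 and 251 against 72.8, 85.3 and 58.5 (log2 -1.83 ± 0.27, limma adjusted p = 0.00890). Agtrap, which binds the angiotensin II receptor, fell by 1.11 ± 0.18, and Gemin5, the part of the SMN complex that recognises snRNA, fell by 0.93 ± 0.15. Galnt11, which starts O-linked sugar chains, rose by 0.69 ± 0.12, Bex4 by 1.05 ± 0.17 and the zinc finger gene Zfp982 by 1.08 ± 0.17. Leaving out single arrays ended the call of Hars in 4 of 6 fits, of Tmem14c in 5, of Spg21 in 1 (without the B6g7 array numbered 2), of Agtrap, Bex4 and Zfp982 in 4 each and of Gemin5 and Galnt11 in 5 each. Agtrap, Bex4, Zfp982, Gemin5 and Galnt11 lost it without the last-numbered arrays of all groups as well (limma adjusted p from 0.0634 to 0.222). Tmem14c and Galnt11 lost it under median centring (limma adjusted p = 0.0679 in both).

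The same strain difference was then read in the 10 arrays with peptide at 16 h or without the transgene, whose means did not enter the comparison above. There limma called 75 probe sets (0.604%), 25 higher (0.201%) and 50 lower (0.403%), among them the brightest of 47 genes (0.57%). An unadjusted p under 0.05 was found for 658 (5.3%), and in 212 (1.71%) the 5 NOD arrays lay apart from the 5 B6g7 arrays. Of the 33 probe sets called without peptide, 33 had the same sign there, 30 were called (10 higher and 20 lower) and 28 had all 5 and 5 arrays apart. These 30 are 90.9% of the 33 and 40% of the 75. The spread that went into the 33 calls had been estimated with these 10 arrays, while their means had not. Of the 45 called there and not without peptide, 45 had the same sign without peptide and 35 lay apart in it.

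The ranges of some called genes over these other arrays were as follows. Cnn3 lay between 481 and 999 in the 5 other B6g7 arrays and between 90.2 and 199 in the 5 other NOD arrays. Its difference was -1.58 at 16 h, where it was not called (limma adjusted p = 0.0541). In wild-type cells it was -3.09 (limma adjusted p = 0.00693). Hat1 lay between 871 and 1045 in B6g7 and between 274 and 389 in NOD, and Kif23 between 534 and 888 against 203 and 363. For Pdk1 the ranges were 202 to 576 and 78.1 to 131, for Hars 119 to 280.2 and 437 to 729, and for Pttg1 187 to 298 and 364 to 478. The 2 strains did not overlap in any of these. Cd3g overlapped, at 682 to 1411 in B6g7 and 1298 to 2191 in NOD, although it was called there too (log2 0.98, limma adjusted p = 0.0194).

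Of the 33, 3 were not called in the other arrays: Pelo, Col1a2 and Gm11346. Pelo, a ribosome rescue factor, read 84.3, 115 and 95.1 in B6g7 and 43.6, 42.6 and 41.8 in NOD by a probe set that is not its brightest (log2 -1.19 ± 0.14, limma adjusted p = 0.00125). The brightest probe set of Pelo was not called. By the dimmer one the difference was -0.83 at 16 h, where it was called (limma adjusted p = 0.0147), and 0.12 in wild-type cells, where it was not. At 16 h alone 61 probe sets were called (0.491%), and in wild-type cells, with 2 and 2 arrays, 11 (0.0886%). The test of the difference between the 2 sets of arrays gave Pelo an unadjusted p of 0.0003 and an adjusted p of 1. Col1a2, a collagen chain of mesenchymal cells, was called higher at 1.63 ± 0.30 (limma adjusted p = 0.0442) by its dimmer probe set, while its brightest gave 0.14. The dimmer one was called at 16 h too (1.56, limma adjusted p = 0.0374) and gave 0.17 in wild-type cells. Its call without peptide was lost under median centring, with a pseudocount of 32, with no intensity trend and without the last-numbered arrays of all groups (limma adjusted p 0.0638, 0.0894, 0.0735 and 0.103). Gm11346 was at -0.55 here and -0.35 there. Over all probe sets that test called 0, with 97 unadjusted p under 0.05 (0.781%), and 0 with the array number as a block, where 267 had an unadjusted p under 0.05. Gimap4, a GTPase of maturing lymphocytes, had one of the 5 smallest p in that test. It read 744, 976 and 744 in B6g7 and 333, 338 and 376 in NOD (log2 -1.22 ± 0.30, limma adjusted p = 0.207), against -0.52 at 16 h and 0.81 in wild-type cells, neither called, which together gave 0.01 in the other 10 arrays.

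**Figure D2:**
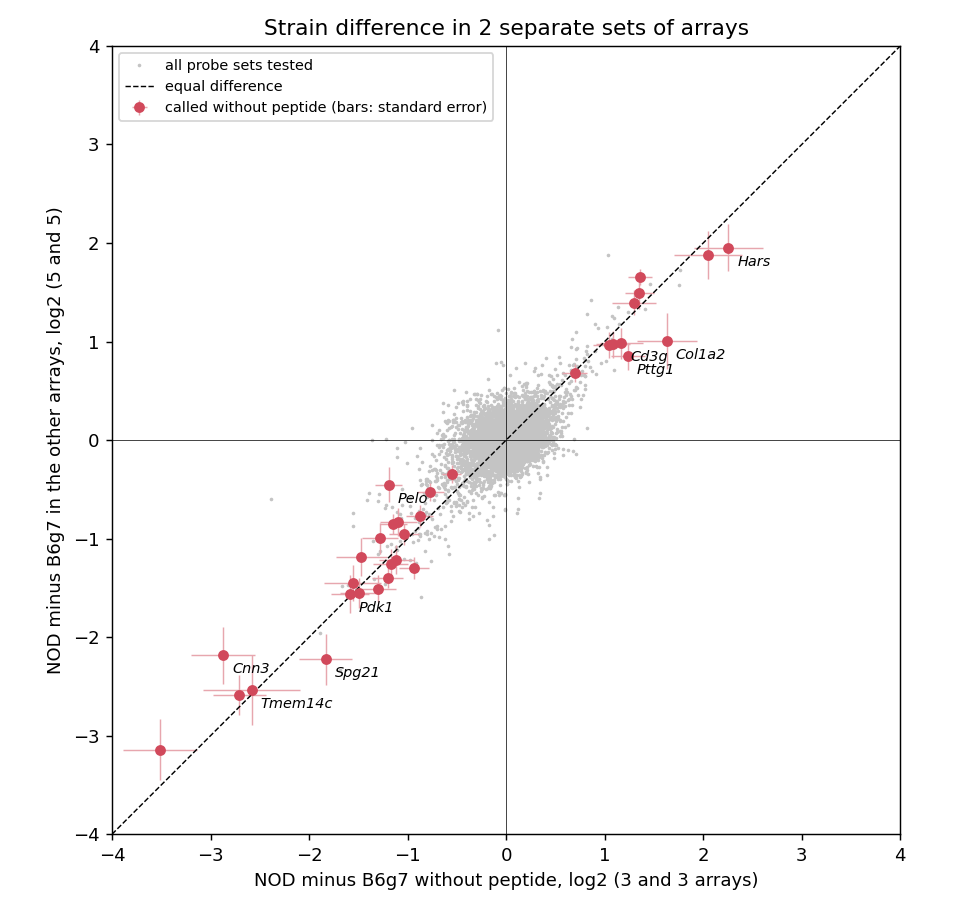
Strain difference (NOD minus B6g7, log2) without peptide on the horizontal axis (3 and 3 arrays) and in the other arrays on the vertical axis (5 and 5 arrays), for all 12422 probe sets (grey) and the 33 called without peptide (red, bars are standard errors). All 33 have the same sign on both axes, and Pelo (-1.19 and -0.45), Cnn3 (-2.87 and -2.18) and Col1a2 (1.63 and 1.01) lie farthest from the broken line of equal difference, each on the side nearer 0 on the vertical axis.

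A second probe set for the same gene was available for 10 of the 27 called genes, 15 probe sets in all. Of these 15, 9 had the sign of the called one, 2 lay apart in its direction and 0 were called. Mbtd1 and AI506816 gave calls in 1 direction and values in the other. For Mbtd1, a methyl-lysine reader, the called probe set gave 2.05 ± 0.34 (limma adjusted p = 0.0211) and the brightest -0.97. For AI506816 the called one read 31.4, 30.5 and 27.8 against 91.2, 76.3 and 64.6 (log2 1.36 ± 0.12, limma adjusted p = 0.000258), and the brightest gave -0.92. Prdx2, a peroxide-reducing enzyme, was called lower by a probe set that read 215, 180 and 196 in B6g7 and 68.1, 78.3 and 63.2 in NOD (log2 -1.50 ± 0.19, limma adjusted p = 0.00274), and its brightest probe set gave 0.17. Vcp, an ATPase that extracts proteins for degradation, was called lower by a dim probe set (-0.77 ± 0.14, limma adjusted p = 0.0344), and another gave 0.63. Hat1 gave -0.62 and Pttg1 0.14 by their second probe sets. The probes were not set against the genome of either strain, so a different amount of RNA and a different fit of the probes cannot be told apart for any gene named here.

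Some genes called in either set of arrays lie near each other in gene order. Hat1, Itga6 and Pdk1 follow each other in the gene order of the GRCm38.p6 assembly, with 3 protein-coding genes between Hat1 and Itga6 and 0 between Itga6 and Pdk1. This stretch was picked after the values were seen. Itga6, the alpha chain of a laminin receptor, read 31.6, 53.6 and 40.3 in B6g7 and 65.2, 148 and 131 in NOD. Its difference of 1.40 ± 0.37 ran against that of its neighbours and was not called (limma adjusted p = 0.296), except with the array number as a block (0.0236), and it was called in the other 10 arrays at 1.33 (limma adjusted p = 0.0476). Of 26 coding genes from 10 before Hat1 to 10 after Pdk1, 13 were measured and 4 of these lay apart: the RNA methyltransferase gene Mettl8 at -0.24 and the 3 above. The stretch had been picked for those 3, and 5.39% of all genes lay apart. Dlx1 and Dlx2, which lie between Hat1 and Itga6, were at 0.01 and -0.01 on dim probe sets. Of 59 genes called in either set of arrays, 7 pairs of neighbours in gene order were parted by 20 or fewer coding genes. Among the other 5 pairs were Spg21 with Pclaf (7 between), Cd8b1 with Eif2ak3 (8 between) and Zfp982 with Agtrap (14 between). How many such pairs 59 other genes would give was not tested.

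**Figure D3:**
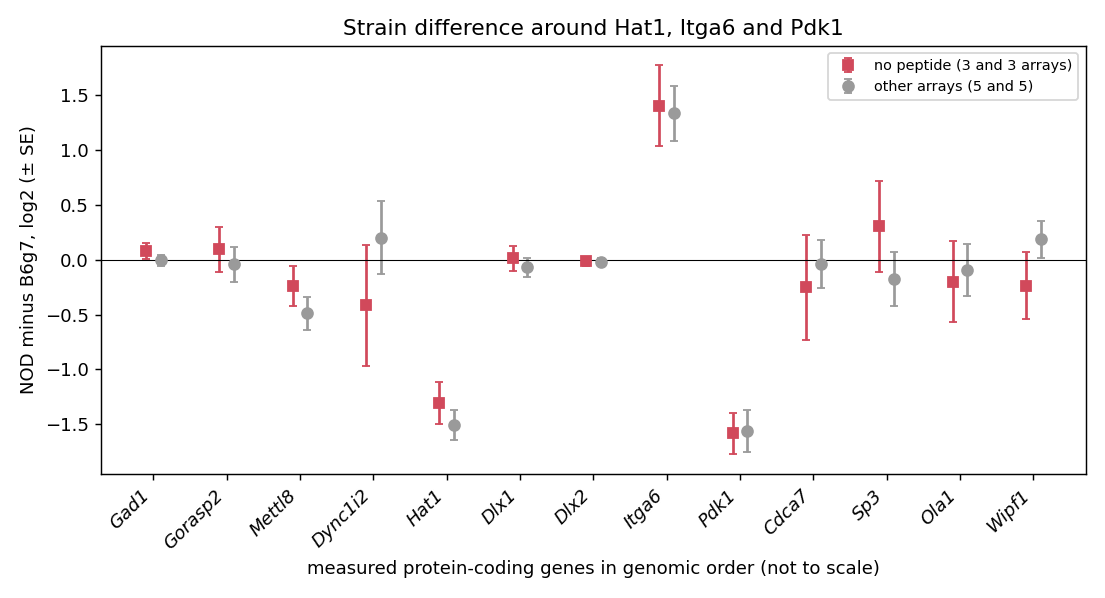
Strain difference (NOD minus B6g7, log2, with standard errors) of the 13 measured protein-coding genes around Hat1, Itga6 and Pdk1, in gene order and not to scale, without peptide (red squares) and in the other arrays (grey circles). Hat1 and Pdk1 lie at -1.30 and -1.58 without peptide and Itga6 between them at 1.40, and the grey circles of these 3 genes lie near the red squares.

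Most interferon-response genes read lower in NOD, though no member was called. Interferons act through receptors that activate STAT proteins. Type I interferon drives genes through a repeated GAAA element (the interferon-stimulated response element), and interferon gamma does so through a palindromic GAS site. Of 29 measured members, 27 were lower and 2 higher, with a median of -0.57 against 0.03 over all genes. In 16 (55.2%) the 3 NOD arrays lay under the 3 B6g7 arrays, against 2.39% of all genes, and 1 lay apart upward. For 4 of these 16, the 200 bases before the start of the gene are printed here (RefSeq, GRCm38.p6). They are the members with the largest differences that hold the letters GAAA, 2 free bases and GAAA again in that stretch on either strand. Capitals mark the match, which reads TTTC, 2 free bases and TTTC where it lies on the other strand. Isg15 has overlapping matches. The stretches are Igtp at chr11:58199356-58199555 (+ strand), Ifit1 at chr19:34640689-34640888 (+), Gbp2 at chr3:142620463-142620662 (+) and Isg15 at chr4:156200819-156201018 (- strand), each 5′ to 3′ toward the gene.
Igtp: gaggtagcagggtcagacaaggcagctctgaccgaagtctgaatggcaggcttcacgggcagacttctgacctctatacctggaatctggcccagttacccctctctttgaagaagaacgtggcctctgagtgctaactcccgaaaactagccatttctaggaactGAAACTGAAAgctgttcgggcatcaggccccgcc
Ifit1: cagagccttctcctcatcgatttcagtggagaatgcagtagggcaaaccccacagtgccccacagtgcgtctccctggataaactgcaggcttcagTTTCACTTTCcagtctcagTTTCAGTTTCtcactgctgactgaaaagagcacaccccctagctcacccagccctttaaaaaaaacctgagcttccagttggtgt
Gbp2: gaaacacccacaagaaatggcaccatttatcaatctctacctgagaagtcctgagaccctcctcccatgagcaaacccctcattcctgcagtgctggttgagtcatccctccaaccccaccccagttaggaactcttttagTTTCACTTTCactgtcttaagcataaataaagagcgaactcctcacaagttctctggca
Isg15: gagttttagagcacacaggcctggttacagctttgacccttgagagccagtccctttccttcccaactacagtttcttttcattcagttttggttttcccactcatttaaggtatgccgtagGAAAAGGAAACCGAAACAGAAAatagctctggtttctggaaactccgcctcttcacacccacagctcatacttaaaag

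Within 250 bases before the start, 10 of the 23 list members with a RefSeq promoter held that GAAA pair on either strand (43.5%), against 223 of 6576 measured genes (3.39%). The letters TTC, 3 free bases and GAA, which read the same on both strands, were in 6 of the 23 (26.1%) against 486 of all (7.39%), and no match of 1 motif overlapped a match of the other in the list. Among the 12 members of the 23 whose NOD arrays lay under the B6g7 arrays, 7 held the first motif and 3 the second. A match says only that these letters are in the stretch.

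The levels behind the list were as follows. Igtp, an interferon-gamma-induced GTPase, read 270.5, 683 and 395 in B6g7 and 124, 143 and 163 in NOD (log2 -1.55 ± 0.63, limma adjusted p = 1). Irf9, the DNA-binding subunit of the type I interferon factor ISGF3, read 402, 859.8 and 556 against 217, 254 and 350.4 (log2 -1.11 ± 0.38, limma adjusted p = 0.846). All NOD arrays of both genes lay under all B6g7 arrays. The GTPase gene Ifi47 was at -1.55, the RNA-binding Ifit1 at -1.36, the deubiquitinase-like Usp18 at -1.30, Gbp2 at -1.14, the ubiquitin-like Isg15 at -1.02 and the factor Irf1 at -0.88, all with the groups apart. Ifi204, a DNA sensor of the p200 family, read higher in NOD, at 92.2, 108 and 99.98 in B6g7 and 359.8, 282 and 386 in NOD (log2 1.77 ± 0.47, limma adjusted p = 0.310, and 0.0289 without the last-numbered arrays of all groups). Mx2 was at 0.19 with overlap. The standard errors use the spread within all 6 groups of the series. These genes varied widely within the B6g7 arrays at 16 h and within the wild-type arrays of both strains, as the list means below show. How much each group added to the standard errors was not tested.

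The list's mean log2 intensity was 6.85, 7.21 and 7.09 in the B6g7 arrays and 6.45, 6.46 and 6.57 in the NOD arrays, with no overlap. In arrays of the same number the median difference was -0.42 for number 1, -0.46 for number 2 and -0.45 for number 3, with 27, 26 and 27 of 29 members lower. Without the arrays numbered 3, 27 were lower, 22 lay apart downward (75.9%, where 8.98% of all genes did with 2 and 2 arrays) and the median was -0.48. At 16 h of peptide 26 of 29 were lower with a median of -0.31, 1 lay apart downward (3.45%, where 5.67% of all genes did), and the list mean was 6.78, 6.55 and 8.36 in B6g7 and 6.81, 7.03 and 6.86 in NOD. Here the B6g7 array numbered 3 stood alone. The other two B6g7 means lie under all 3 NOD means, so the lower mean of NOD at 16 h rests on that array and turns without it. In wild-type cells 22 were lower with a median of -0.19, 2 lay apart downward (6.9%, where 13.3% of all genes did and 4753 of 8251 were lower), and the means of 6.33 and 7.54 in B6g7 overlapped those of 6.34 and 7.12 in NOD.

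**Figure D4:**
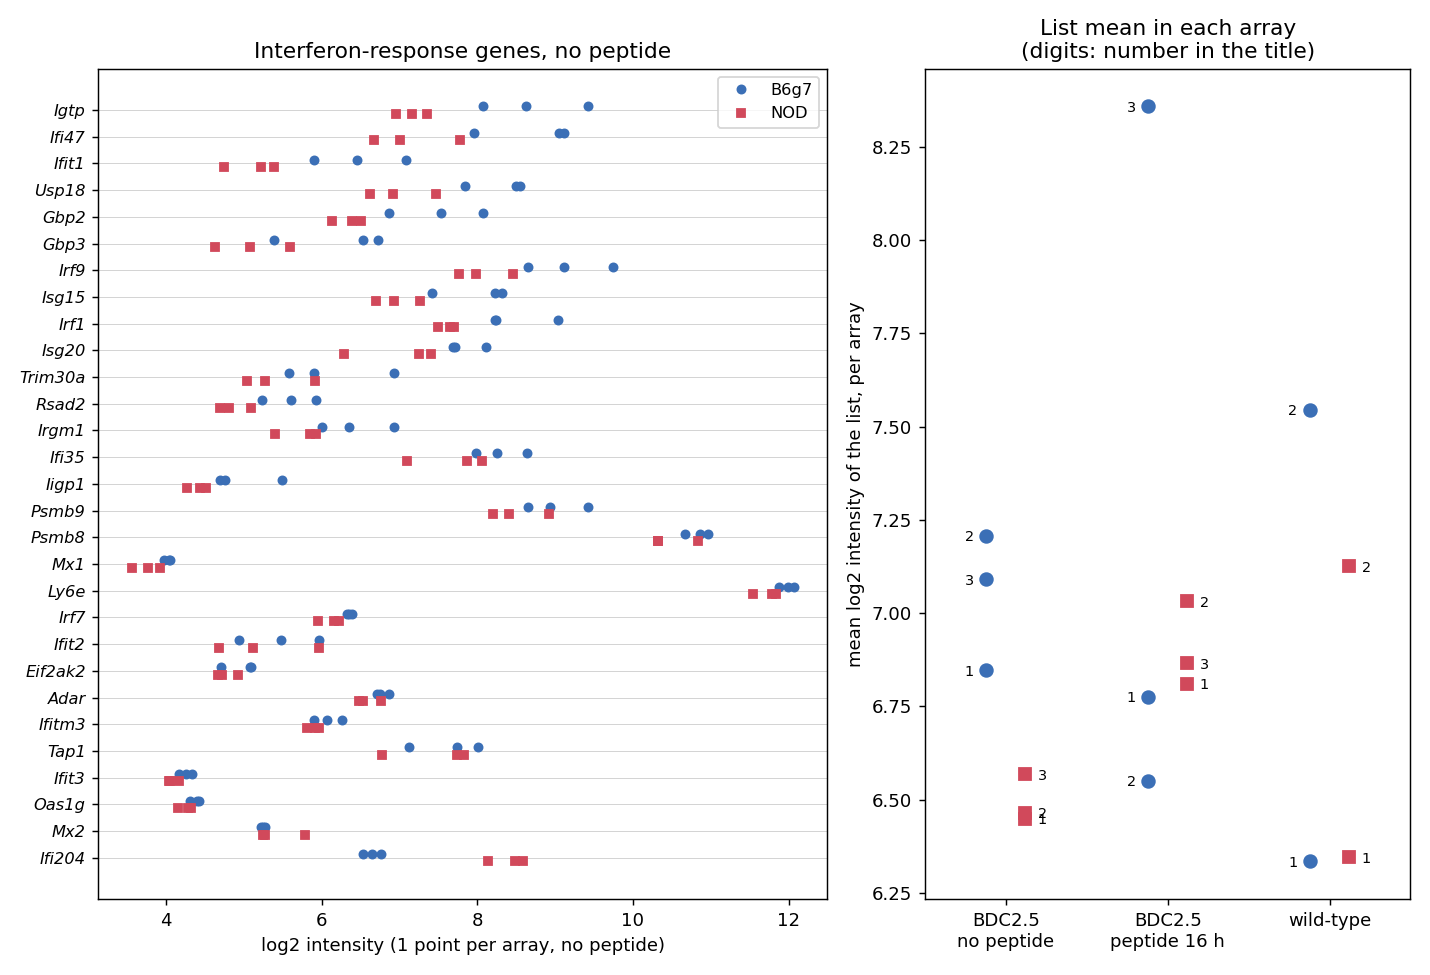
Left, log2 intensity of the 29 interferon-response genes in BDC2.5 thymocytes without peptide, 1 point per array for B6g7 (blue circles) and NOD (red squares), ordered by difference. Right, the list's mean log2 intensity in each of the 16 arrays with the array's number beside it: without peptide the 3 NOD arrays (6.45 to 6.57) lie under the 3 B6g7 arrays (6.85 to 7.21), and in the other 2 conditions the strains overlap.

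Many antigen presentation genes are also interferon targets. Of 27 measured, 18 were lower and 9 higher (median -0.07), and none was called. In 3 the groups lay apart downward (11.1%, where 2.39% of all genes did). B2m, the light chain of class I MHC, read 2617, 3502 and 3114 in B6g7 and 1959, 2160 and 2032 in NOD (log2 -0.58), and H2-K1, a class I heavy chain, read 348, 353 and 316 against 183, 181 and 195 (log2 -0.86). Both had groups apart. Among 26 candidate genes of NOD diabetes loci, 17 were lower and 9 higher, with 5 apart downward and 2 upward (26.9% apart, where 5.39% of all genes were) and none called. Ifih1 (MDA5), a sensor of viral RNA, read 102, 164 and 143 against 43.3, 43.8 and 67.2 (log2 -1.41 ± 0.61, limma adjusted p = 1). Il2ra, the high-affinity interleukin-2 receptor chain, lay apart at -0.28 on a dim probe set, the costimulatory receptor Icos at -0.76, and Clec16a, a gene of autophagy, at 0.56.

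The lists of proximal signalling, immediate-early, NF-kB and death genes, which do not hold Cd3g, gave no call before peptide. Of 25 immediate-early genes of the receptor, 9 were higher and 16 lower with a median of -0.02, and none lay apart. Nr4a1 (Nur77), which is induced in proportion to receptor signal, was at -0.58 ± 0.35 and Egr2 at -0.46 ± 0.49, with overlap in both. Of 24 coreceptor and proximal signalling genes, 15 were higher and 9 lower, and Cd8b1 was the 1 apart (4.17%, where 5.39% of all genes were). The NF-kB pathway had 8 of 17 higher and none apart. Among 23 pro-apoptotic genes 12 had higher and 11 lower values in NOD (median 0.01), with Bcl2l11 (Bim) at -0.20 ± 0.26. The death receptor Fas, at 0.52 ± 0.31, was the 1 gene apart (4.35%, where 5.39% of all genes were). Of 15 anti-apoptotic genes 6 were higher and 9 lower, with Bcl2 at -0.01.

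Cdkn1a (p21), the cyclin-dependent kinase inhibitor and a target of p53, read 212, 160 and 142 in B6g7 and 369, 315 and 349.9 in NOD, with the groups apart (log2 1.03 ± 0.28, limma adjusted p = 0.334, and 0.0147 with the array number as a block). Its second probe set gave 0.76 and lay apart too. Of 13 measured genes of the p53 list, 10 were higher and 3 lower, with a median of 0.04. Cdkn1a and Fas, 2 of the 13, lay apart upward (15.4%, where 3.01% of all genes did). At 16 h the same list had a median of 0.36 with 7 of 13 apart upward (53.8%, where 6.47% of all genes were). Of 23 positive selection and maturation genes, 16 were lower and 7 higher (median -0.08). Gimap4 and Runx1 lay apart downward (8.7%, where 2.39% of all genes did). Runx1, a factor that silences Cd4, read 37.1, 61.1 and 247 in B6g7 and 32.6, 35 and 29.7 in NOD (log2 -1.35 ± 0.54, limma adjusted p = 1). The B6g7 array numbered 3 was far above the other two, and without it the difference was -0.56. Activation receptors had 12 of 27 higher, with 3 apart in each direction (22.2% in all, where 5.39% of all genes were) and none called. Chaperones (26 of 36 lower, median -0.11), proteasome genes (22 of 31 lower, -0.12) and nucleolar genes (21 of 35 lower, -0.07) gave no call. They had 0, 1 and 2 members apart (0%, 3.23% and 5.71%, where 5.39% of all genes were). Between the arrays numbered 2 their medians were positive (0.02, 0.20 and 0.06), with 17 of 36, 8 of 31 and 14 of 35 lower. Between those numbered 1 and those numbered 3 all of these medians were negative.

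**Figure D5:**
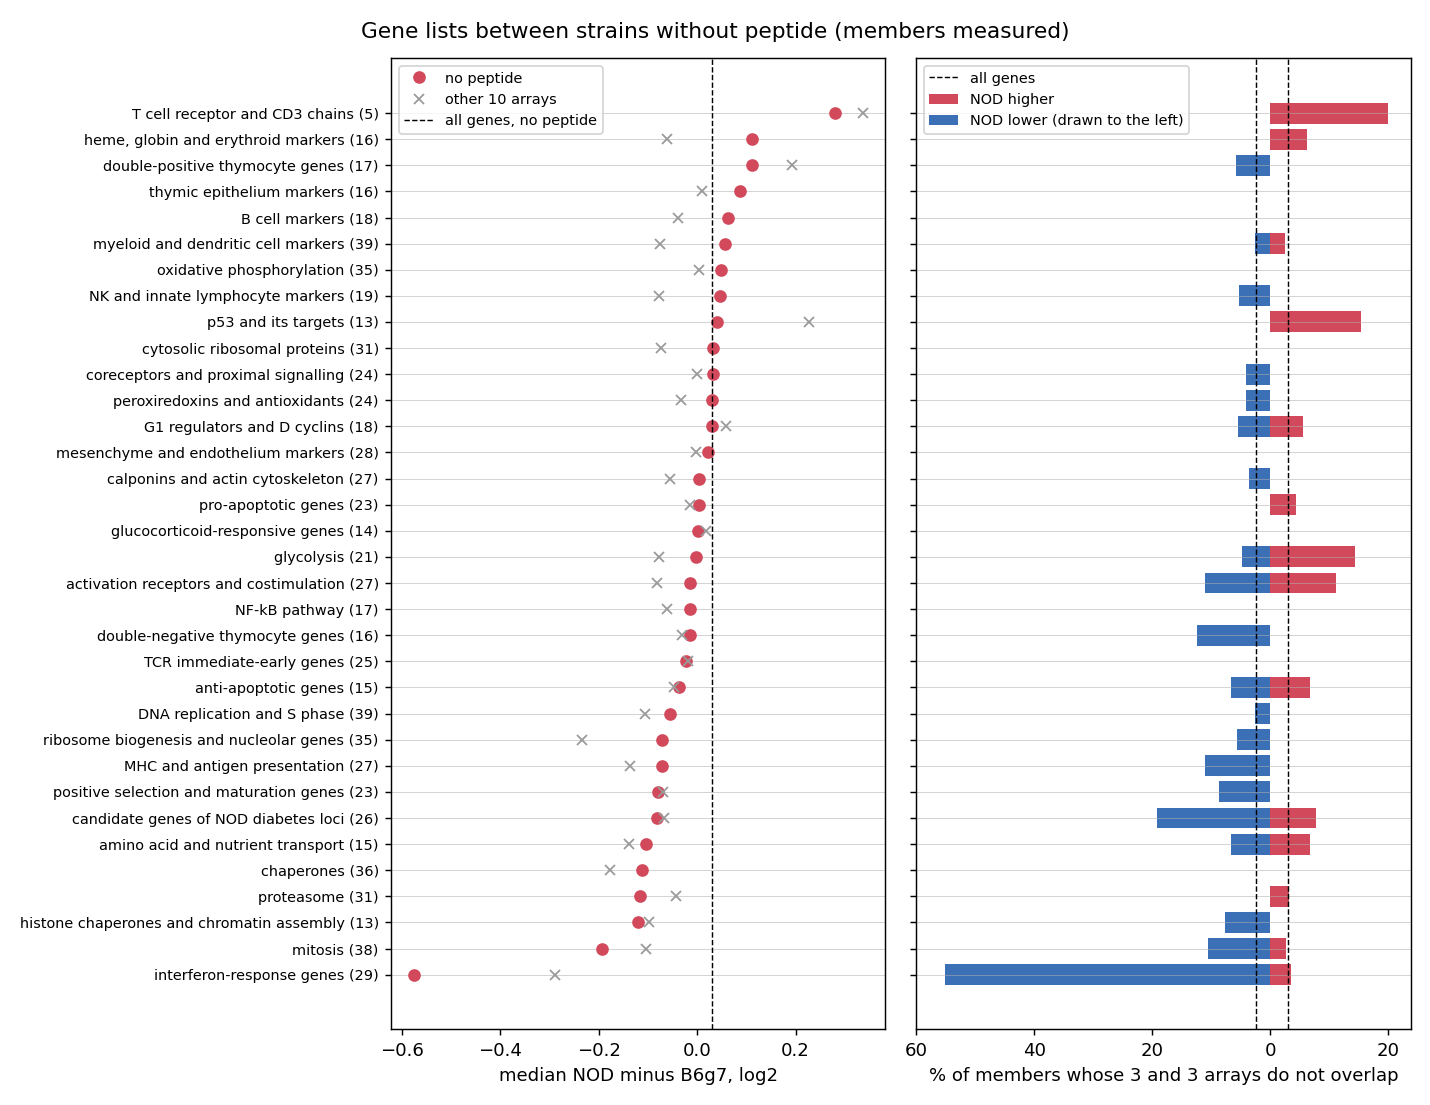
Left, the median strain difference (NOD minus B6g7, log2) of each gene list without peptide (red circles) and in the other 10 arrays (grey crosses), with the number of members measured in brackets. Right, the percentage of members whose 3 NOD and 3 B6g7 arrays do not overlap, drawn to the right where NOD is higher and to the left where it is lower; broken lines give all genes, and interferon-response genes stand at -0.57 and 55.2% lower.

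Markers of other cell types were read because the gate could let some cells through. Apoe, a lipid carrier made by macrophages, read 597, 533 and 266 in B6g7 and 163, 114 and 138 in NOD, with groups apart and no call (log2 -1.68 ± 0.36, limma adjusted p = 0.105, and 0.0245 without the last-numbered arrays of all groups). In the other 10 arrays it fell by 2.34 (limma adjusted p = 0.0028). The 39 measured myeloid and dendritic markers gave 27 higher and 12 lower without peptide (median 0.06). In each direction 1 lay apart (2.56%, where 3.01% of all genes did upward and 2.39% downward). The summed intensity of these markers was 3123 to 3831 in B6g7 and 3453 to 3858 in NOD. At 16 h, 32 of the 39 were lower (median -0.12) and 8 lay apart downward (20.5%, where 5.67% of all genes did), and in wild-type cells 20 were lower and 19 higher. B cell markers had 10 of 18 higher and sums of 1789 to 2959 against 1748 to 2708, and NK markers 12 of 19 higher and 954 to 1238 against 963 to 1031. Thymic epithelium markers had 11 of 16 higher and sums of 1660 to 3158 against 1680 to 3723. Mesenchyme and endothelium markers had 16 of 28 higher and sums of 3363 to 4545 against 3304 to 5279. Erythroid markers had 13 of 16 higher and sums of 1170 to 1499 against 1218 to 1577. The 2 strains' sums overlapped in each of these 6 lists, no marker was called by its brightest probe set, and no probe set is listed at 0 since the lowest intensity on the arrays is 7.77. The part of other cells in the differences above was not tested beyond these values.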

How the data were processed

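Total RNA of 16 samples had been hybridised to Affymetrix mouse arrays with 12488 probe sets. The authors deposited linear intensities, 1 for every probe set of an array, from 7.77 to 14085.47. Background correction, scaling and probe set summary are not given in the sources used here, and no detection values were used. Their log2 was analysed without a pseudocount. After 66 control probe sets were left out, 12422 were tested. Of these, 10833 named 1 gene in the platform annotation (8251 genes), 396 several and 1193 none, and 10817 matched a RefSeq gene ID.

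Differences are NOD minus B6g7 from limma (version 3.58.1, R 4.3.3), with eBayes moderation along an intensity trend, fitted on all 16 arrays with 1 mean per group (10 residual and 3.6 prior degrees of freedom). The other 10 arrays were fitted apart, with condition as a term (7 and 3.56). Tests were two-sided, with Benjamini-Hochberg adjustment over all 12422, and a call is an adjusted p under 0.05. A value behind ± is the fitted standard error. "Apart" means that no array of 1 group lies within the range of the other. The number of arrays limits the precision. The fit was also run on simulated arrays drawn independently of each other. They lacked the shared deviation of same-numbered arrays, so that run does not cover it.

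For lists, each gene was read by its brightest probe set. Lists, members and tests were chosen with earlier results of these data known. Named genes were the 15 largest called differences each way by brightest probe set (or, under 10 calls, the 10 smallest p), up to 3 members of each list, fixed genes, and the 5 smallest p for the difference between the sets of arrays. Other genes were named after their values were seen, as was every called gene read by a dimmer probe set.

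The titles number the arrays within each group. Same-numbered arrays of the strains deviated together from their group means (correlations across probe sets 0.777, 0.165 and 0.842), which was taken to pair them, although the labels do not say what a number marks and 1 crossed pair gave 0.37. The block on the array number is therefore an alternative, as are other scalings, filters and left-out arrays. The last-numbered arrays, left out together, were number 3 of each BDC2.5 group and number 2 of each wild-type group.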

Additional observations from a re-analysis of the deposited data

How the results depend on the processing

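All 33 probe sets called without peptide kept their sign under every alternative that tested them, but their calls leaned on the shared spread: the 6 arrays alone called 0 (367 with an unadjusted p under 0.05), and single arrays left out gave 15 to 24. The array number as a block, which uses the pairing, called 69 and so added Cd8b1, Cdkn1a, Pqlc3 and Srpk2 among the genes chosen by the rule, Itga6 and Eif2ak3 among the others named, and a further probe set of Vcp. It ended no call. Quantile scaling gave 35, median centring 27, a pseudocount of 32 gave 34, no intensity trend 27, the brighter probe sets alone 22, and leaving out the last-numbered arrays 31, of which 20 were shared with the 33. In the other 10 arrays the count of 75 became 41 with the brighter probe sets alone, 143 without the last-numbered arrays, 100 with the block and 81 with quantile scaling. The difference between the sets of arrays called 0 under each of these. Why the calls changed was not tested, apart from the fewer arrays or probe sets in some of these fits.

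Uncalled genes near 0 changed sign. Without the last-numbered arrays Cd8a gave -0.085, Cd4 -0.056, Itm2a 0.24 and Cnn2 0.039. With single arrays left out, Traf6 ran from -0.67 to 0.036, Cdh5 from -0.008 to 0.22, Prdx2 by its brightest probe set from -0.023 to 0.42, Cd24a from -0.28 to 0.61, Rag2 from -0.62 to 0.17, Cd8a from -0.17 to 0.30 and Itm2a from -0.31 to 0.25. Cd5 ran from -0.30 to 0.58, Rag1 from -0.75 to 0.28, Cnn2 from -0.25 to 0.12, Casp6 from -0.025 to 0.29, Nap1l1 from -0.61 to 0.52, Bcl2 from -0.14 to 0.13, Il7r from -0.21 to 0.091 and a dimmer probe set of Trav9d-3 from -0.26 to 0.22. The median of the interferon list ran from -0.73 (brighter probe sets alone) to -0.395 (pseudocount of 32).

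With 3 arrays a group, a strain difference that misses the threshold is not shown to be absent. Of the 33 calls, 12 lay below the median brightness of all probe sets, where a fold is least certain, and no detection values were used. The strain and the fit of the probes to each strain's sequence cannot be told apart here.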
